A study of Mus musculus with 20 samples.

Results

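Genes that the colonic epithelium uses for secretion and defence, 10 in all, were followed in cultured mouse colonoids, with and without the receptor TNFR2. They were chosen by name: Reg4 and Kit, which mark the deep secretory cells of the mouse colon crypt, and Reg3b, Reg3g, Retnlb, Ang4, Pla2g2a, Lyz1, Lyz2 and Itln1, which encode antimicrobial lectins, enzymes and peptides of the gut. All 10 were in the table, among 35240 genes, and 7 of the 10 had a mean level of at least 1 and were tested together with 13539 genes in all. Reg3b, Reg3g and Retnlb were below that level and are given as values. The name lectin covers Reg4, Reg3b, Reg3g and Itln1, while Kit is a receptor and the others are enzymes or a resistin-like peptide.

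Colonoids are epithelial structures grown from colon crypts in a gel matrix with a commercial medium (Intesticult). The WT groups came from wildtype C57BL/6 mice without the deletion, and the Tnfr2-/- groups from mice of the strain B6.129S2-Tnfrsf1btm1Mwm/J, in which Tnfrsf1b, the gene of TNFR2, is disrupted in every cell of the body. The labels name no added TNF or other ligand. All cultures of both genotypes had been passaged 5 times, passed through a mesh and collected on days 1, 2, 3, 5 or 7 after the last passage. There were 20 libraries, 2 for each genotype and day, 1 from each of 2 mice per genotype. Mice for colonoid cultures were 8 weeks old by the culture methods, and the labels of these libraries give no age. The 5 libraries of a mouse are repeated samples of 1 animal. Days 1 to 3 are called early and days 5 and 7 late. Levels are normalised expression, that is TPM (reads corrected for transcript length and set to a fixed total per library) divided by a size factor of each library.

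Deep secretory cells sit between the stem cells at the base of the colon crypt, where they hold the place that Paneth cells hold in the small intestine, and they secrete mucus and signals that keep the neighbouring stem cells. Paneth cells, goblet cells and enterocytes release lectins and enzymes that bind or break bacterial walls and membranes. Several of these genes are switched on in the intact gut by microbes and by cytokines such as IL-22 and IL-13 from immune cells, which colonoid cultures are grown without.

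The low levels of these genes make depth matter. The deposited values move in steps that correspond to single reads, and from these steps each library was estimated to hold between 2.02 and 3.44 assigned reads in units of 1e6, except WT day 1 of mouse 2, with 8.34. Of 84 values of the 10 genes above 0 and under 15 reads, 77 lay within 0.15 of a whole read. In all, the 10 genes received 1825 reads over 20 libraries, of which 89.03% went to Reg4, Lyz1 and Ang4. Tnfrsf1b ranged from 11.14 to 21.89 in WT and from 2.714 to 11.45 in Tnfr2-/- libraries, so that 9 of 10 WT libraries lay above every Tnfr2-/- library, with a log2 difference of -1.35 (SE 0.167, limma adjusted p 9.72e-05). Tnfrsf1b rose late in Tnfr2-/- cultures (1.02, adjusted p 0.00191). The genotypes differed by -1.72 early and -0.79 late (adjusted p 1.16e-04 and 0.0323), without a called difference between the stages (0.181). These fits count the days of a mouse as separate libraries. On means of 2 mice against 2, limma called none of the 3 genotype differences (adjusted p 0.119 over all days, 0.143 early and 0.29 late). Epithelial markers were present throughout, among them Epcam with a mean of 833.6 and Krt8 with a mean of 5089. Fibroblast markers were present too, with Dcn, a matrix proteoglycan, at a mean of 935.7.

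**Figure D1:**
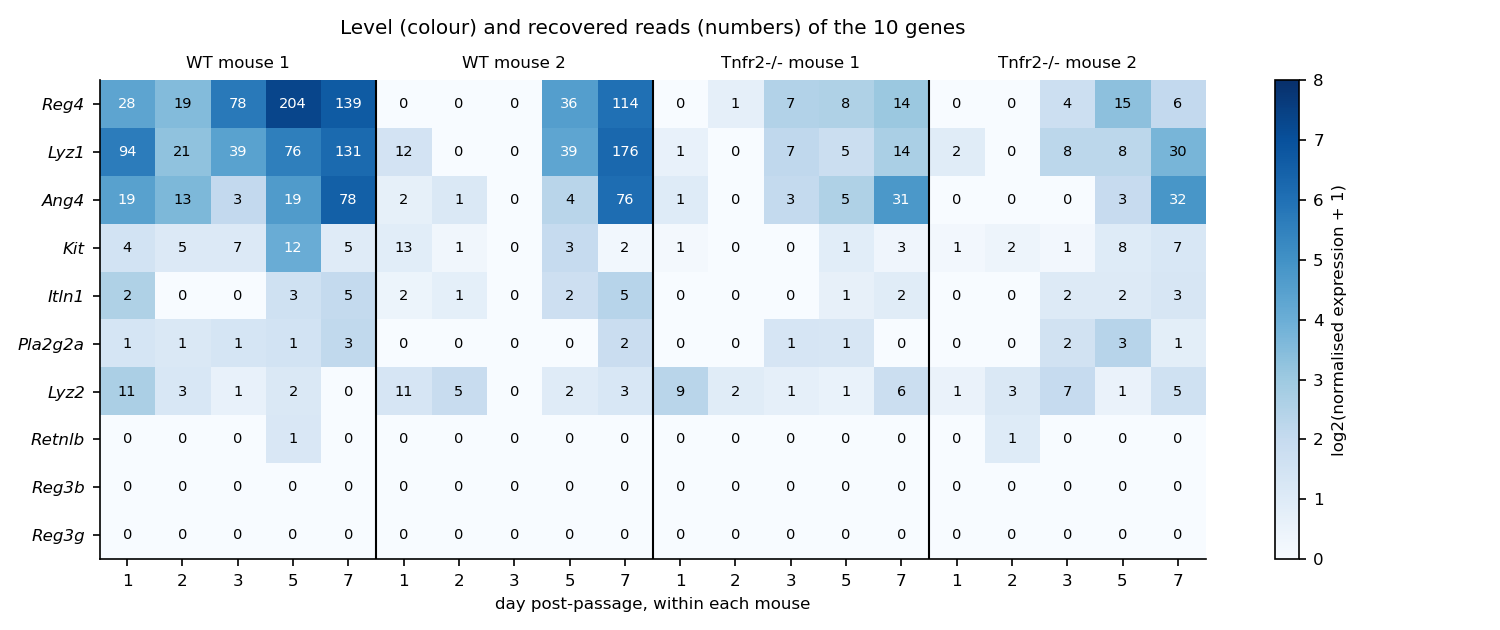
Levels of the 10 genes in each of the 20 libraries, with colour for log2(normalised expression + 1) and the printed number for the recovered reads, rounded. Columns are days post-passage within each of 4 mice. Reg4, Lyz1 and Ang4 hold most reads, WT mouse 2 has no read of any of the 10 genes on day 3, and Reg3b and Reg3g are at 0 reads in every library.

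In order of mean level over the 20 libraries, Reg4 came first with 22.95 ± 41.5, then Lyz1 with 16.29 ± 24.48 and Ang4 with 14.52 ± 24.51 (SD, n = 20). Their ranges overlapped, and neighbours in this order differed by less than their spread. Far lower followed Lyz2 (1.532 ± 1.391), Kit (1.438 ± 3.387), Itln1 (1.125 ± 1.481) and Pla2g2a (1.083 ± 1.233), which likewise differed from each other by less than their SDs. Among the genes tested, 43.63% had a higher mean than Reg4 and 98.99% a higher mean than Pla2g2a. Retnlb, at a mean of 0.1123, had 1 read in each of 2 libraries, and Reg3b and Reg3g had none.

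Reg4 encodes a secreted lectin-like protein of the regenerating family and lies on chromosome 3 (98222156 to 98236748, plus strand, GRCm38), with 1 transcript in the table. In WT mouse 1 its normalised expression was 18.97, 10.35, 52.4, 158.6 and 100.7 on days 1, 2, 3, 5 and 7. In WT mouse 2 it was 0 on days 1, 2 and 3, then 22.23 on day 5 and 63.64 on day 7. The Tnfr2-/- cultures had 0, 0.6157, 4.564, 4.991 and 7.323 (mouse 1) and 0, 0, 2.362, 8.955 and 3.219 (mouse 2). Reg4 thus reached its highest values in late WT cultures. All 4 late WT libraries lay above all 4 late Tnfr2-/- libraries, while the early libraries overlapped. How many of all genes lie apart in this way was not counted, here or for the genes below. The early WT values came from 1 mouse, since mouse 2 had no Reg4 read on 3 days, including the day 1 library with the most reads of the series. A count of 0 there allowed a level of up to 0.5623 (3 reads in that library), against 18.97 in the other mouse on the same day. These limits, and all read numbers here, cover counting error only.

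Late Reg4 averaged 86.3 ± 57.88 in WT and 6.122 ± 2.528 in Tnfr2-/- cultures (SD, n = 4 libraries from 2 mice each), a ratio of 14.1. On the log2(value + 1) scale, which understates changes of low values, the Tnfr2-/- level was lower by 3.38 (log2 difference -3.38, SE 1.18), and this was not called by limma after Benjamini-Hochberg adjustment over all genes (adjusted p 0.110). Over all days the log2 difference was -2.21 (SE 0.704, limma adjusted p 0.0646). Across the alternatives that kept every library, the adjusted p of the late difference ranged from 0.0345 to 0.312 and that over all days from 0.0203 to 0.525, and 2 alternatives called each. Without all 5 libraries of WT mouse 2, the difference over all days was -3.91 and called (adjusted p 1.40e-06), and without those of WT mouse 1 it was -0.52 and not called (0.699). It was also called when any 1 of the WT libraries of mouse 2 on days 1, 2 and 3 was left out (lowest adjusted p 0.00832). The late difference was called without either WT mouse (adjusted p 0.0152 without mouse 1, 5.93e-04 without mouse 2), where the spread comes mainly from the Tnfr2-/- pairs, and not without either Tnfr2-/- mouse (0.5 and 0.52), where it comes mainly from the WT pairs. In bulk RNA, fewer cells that express a gene and less RNA per cell cannot be told apart, here and for every gene below.

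**Figure D2:**
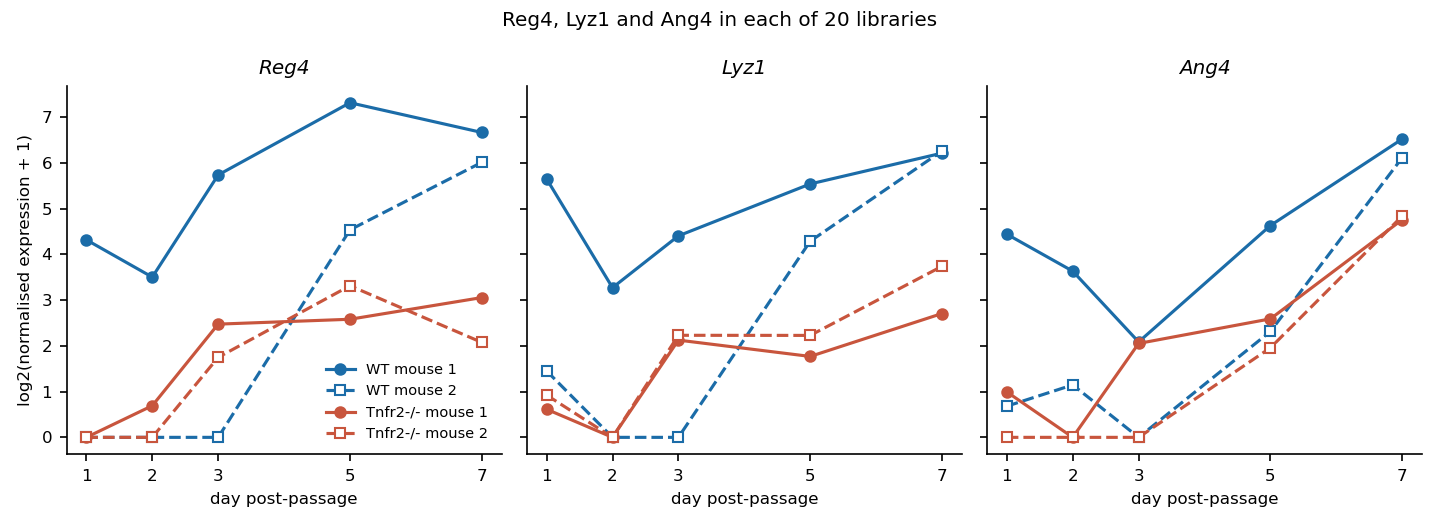
Reg4, Lyz1 and Ang4 in each library as log2(normalised expression + 1) against the day post-passage, 1 line per mouse (blue for WT, red for Tnfr2-/-; filled circles for mouse 1, open squares for mouse 2). WT mouse 1 lies above the other mice on days 1 and 2, and on day 7 both WT mice lie above both Tnfr2-/- mice for all 3 genes.

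Lyz1 and Lyz2 encode the lysozymes that cut the peptidoglycan of bacterial walls: Lyz1 is the form of Paneth cells and Lyz2 the form of macrophages and other myeloid cells. They are neighbours on the minus strand of chromosome 10, at 117287797 to 117292868 and 117277331 to 117282321 (GRCm38), 5.476 kb apart. Their coding sequences of 444 bases without the stop codon (GENCODE M21) differ at 22 positions and are 95.05% identical. Reads of 1 gene can therefore be credited to the other. Of the 31-base words of the Lyz1 transcript, 65.77% occur in no other gene's transcripts, and 67.19% for Lyz2. The stretch of 90 coding bases with the most differences, bases 43 to 132 from the start codon, shows what separates them. Capitals mark the 13 bases that differ:
Lyz1: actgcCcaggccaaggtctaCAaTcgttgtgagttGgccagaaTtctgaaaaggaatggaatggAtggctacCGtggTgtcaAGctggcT
Lyz2: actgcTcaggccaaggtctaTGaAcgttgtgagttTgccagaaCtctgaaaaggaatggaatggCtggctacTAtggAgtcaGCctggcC

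In WT mouse 1, Lyz1 stood at 49.31, 8.669, 20.21, 45.6 and 73.34 in order of day. WT mouse 2 had 1.738, 0, 0, 18.56 and 75.79. The Tnfr2-/- values were 0.5308, 0, 3.367, 2.41 and 5.534 in mouse 1 and 0.8977, 0, 3.698, 3.69 and 12.37 in mouse 2. As for Reg4, the 4 late WT libraries lay above the 4 late Tnfr2-/- libraries, here by 18.56 against 12.37 at the nearest, and the early groups overlapped. Late Lyz1 averaged 53.32 ± 26.92 in WT and 6.002 ± 4.437 in Tnfr2-/- cultures (SD, n = 4), a ratio of 8.88, or 13.8 without the day 7 library of Tnfr2-/- mouse 2.

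Over all days Lyz1 was lower in Tnfr2-/- cultures by a log2 of 2.08 (log2 difference -2.08, SE 0.607), with a limma adjusted p of 0.0444. It was the 1 gene called among the 7 tested, where 7.6% of all genes tested were called in either direction and 3.09% were called lower. The call was narrow: it was lost when libraries of a mouse were allowed to correlate (adjusted p 0.0825), on means of 2 mice against 2 (0.469), and in 16 of 20 fits that each left out 1 library, where the adjusted p reached 0.0910. The 4 libraries without which it was still called were the WT libraries of mouse 2 on days 1, 2 and 3 and the Tnfr2-/- library of mouse 1 on day 3. Without WT mouse 1 the log2 difference shrank to -0.77 (adjusted p 0.510) and without WT mouse 2 it grew to -3.38 (3.28e-05), while without Tnfr2-/- mouse 1 or 2 it was -1.88 (0.288) and -2.27 (0.252). Across 11 alternatives that kept every library the adjusted p ranged from 0.0153 to 0.469, and 3 of the 11 called it. Summed with Lyz2 the log2 difference was -1.77 (adjusted p 0.0629). Late, the log2 difference was -2.97 (SE 0.978, limma adjusted p 0.0922). Although not called with all libraries, it passed without WT mouse 1 (adjusted p 0.00568) and without WT mouse 2 (6.96e-04), and not without Tnfr2-/- mouse 1 (0.533) or 2 (0.442).

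Lyz2 did not follow its neighbour. It lay between 0 and 5.377 in WT and between 0.4276 and 4.022 in Tnfr2-/- libraries, with medians of 1.264 and 1.092 and groups that overlapped throughout. Its reads numbered 0 to 11 per library, several of them not whole, as where reads are shared with Lyz1. Over all days the log2 difference was 0.10 (SE 0.319, limma adjusted p 0.886). Over the 20 libraries its Pearson r with Lyz1 on the log2 scale was 0.0222, a description of libraries that share mice and days. Of 12 macrophage markers, 3 had a mean of at least 1, and Tyrobp, a defining adaptor of myeloid cells, was at 0 in all 20 libraries while the other 11 had a value above 0 in at least 1 library. The 12 markers summed to between 15.3 and 39.68 in late WT and between 34.83 and 53.92 in late Tnfr2-/- libraries, and Cd68, a lysosomal protein of macrophages that other cells also make, was higher in Tnfr2-/- cultures over all days (log2 difference 1.14, limma adjusted p 4.49e-04, but 0.119 on means of 2 mice against 2). It was 1 of 2 macrophage markers called higher among the 3 tested. The part of macrophages in the Lyz2 level was not tested.

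Ang4, a ribonuclease of the angiogenin family with bactericidal activity, is made by Paneth and goblet cells and lies on chromosome 14 (51763878 to 51773590, minus strand, GRCm38). In its transcript 86.16% of 31-base words are found in no other gene, and the rest are shared with other Ang genes, first Ang5. In WT mouse 1 it stood at 20.75, 11.42, 3.248, 23.81 and 91.11 from the first to the last day, against 0.6042, 1.214, 0, 3.981 and 68.38 in WT mouse 2. The Tnfr2-/- values were 0.9917, 0, 3.152, 5.028 and 26.13 in mouse 1 and 0, 0, 0, 2.887 and 27.67 in mouse 2. Ang4 was thus highest on day 7 in every mouse, and on that day both WT values lay above both Tnfr2-/- values. On day 5, WT mouse 2 lay among the Tnfr2-/- libraries. The log2 difference between genotypes was -1.44 over all days (SE 0.499, limma adjusted p 0.0915) and -1.36 late (SE 0.827, adjusted p 0.356), neither called. Over all days it was -0.33 without WT mouse 1 (adjusted p 0.703) and -2.54 without WT mouse 2 (0.00211, called), and late it ranged from -1.94 to -0.78 without single libraries, with -0.68 without WT mouse 1 (0.556) and -2.04 without WT mouse 2 (0.0407, called). Over all days, 2 of 10 alternatives that kept every library called it, with adjusted p-values from 0.0121 to 0.543.

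Itln1, intelectin, binds sugars found on microbial but not on mouse cells and comes from goblet and Paneth cells. It rested on 0 to 5 reads per library. In late WT libraries it was 2.035 and 3.162 in mouse 1 and 2.276 and 4.115 in mouse 2, and in late Tnfr2-/- libraries 0.5444 and 0.9128 in mouse 1 and 1.042 and 1.404 in mouse 2. The 4 late WT libraries again lay above the 4 late Tnfr2-/- libraries in level, but in reads the groups overlapped. WT mouse 1 had 3 and 5 reads, WT mouse 2 had 2 and 5, and the Tnfr2-/- mice had 1 and 2, and 2 and 3. All Itln1 reads went to a transcript of 1141 bases (26.24 reads, mean level 0.6868) and one of 422 bases (3.759 reads, 0.4383). Neither alone reached a mean of 1, so each Itln1 test, including the rise in WT below, rests on their sum. The log2 difference of -0.97 was not called (SE 0.422, limma adjusted p 0.193). Early, 5 of 6 Tnfr2-/- libraries were at 0, as were 3 of 6 WT libraries, and the highest value was 4.994 on day 1 in WT mouse 1, from 2 reads.

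Kit, the receptor for stem cell factor, marks deep secretory cells in the mouse colon, and outside the epithelium it marks mast cells and interstitial cells of Cajal. Its level went by the transcript to which a few reads were credited. Of 76 Kit reads, 36.62 were credited to its 2 protein-coding transcripts and 39.38 (51.81%) to 6 retained-intron transcripts. The highest value, 15.48 on day 5 in WT mouse 1, came from 12 reads, all credited to retained-intron transcripts, and because some of these are short, few reads make a high level per length. The library with the most Kit reads, 13 on day 1 in WT mouse 2, had a level of 0.8121. In the protein-coding transcripts no library exceeded 0.545. Over all days the sum of all transcripts lay between 0 and 15.48 in WT (median 1.02) and between 0 and 1.372 in Tnfr2-/- libraries (median 0.2102), and the groups overlapped. The log2 difference was -0.76 (SE 0.310, limma adjusted p 0.154). Of 9 mast cell markers 6 were at 0 in every library, including Cpa3, Tpsb2 and Fcer1a, and the 9 summed to at most 6.849. Ano1, a channel of interstitial cells of Cajal that epithelia also make, had a mean of 93.87 and its part in the Kit level was not tested.

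**Figure D3:**
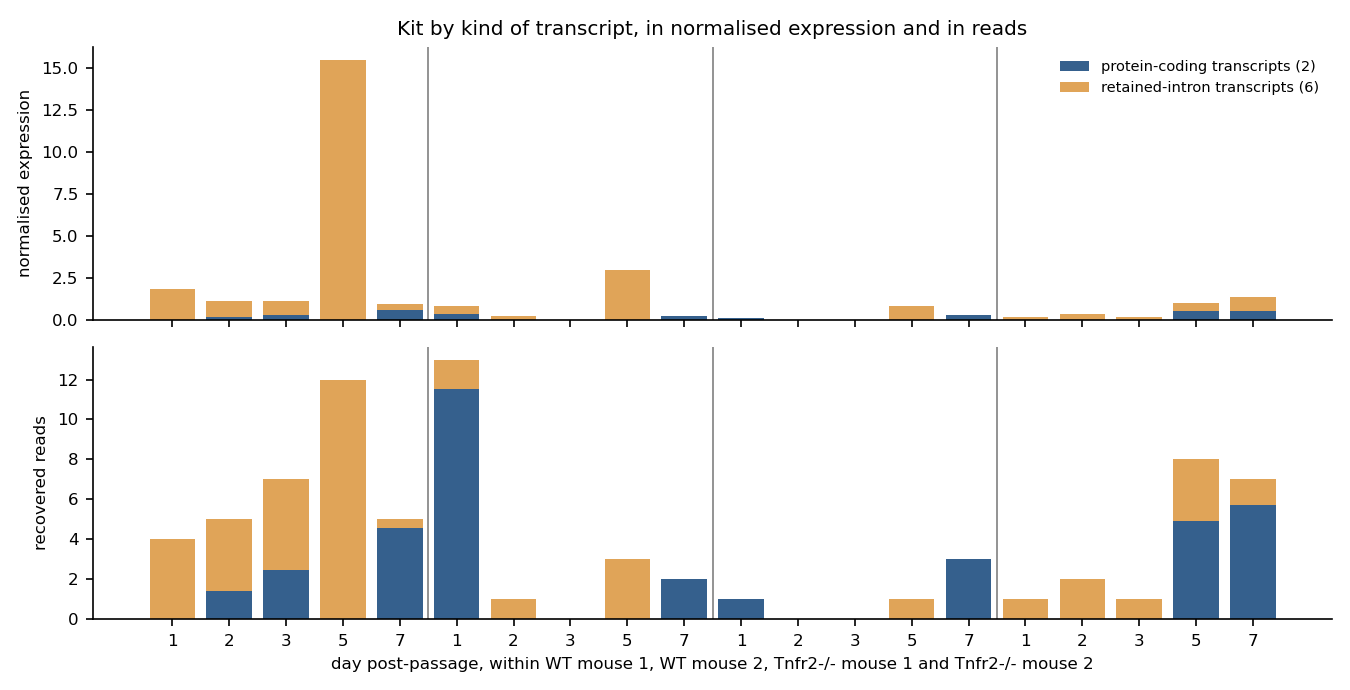
Kit in each library, split into 2 protein-coding and 6 retained-intron transcripts, as normalised expression (upper panel) and as recovered reads (lower panel), by day post-passage within each mouse. The bar of 15.48 for day 5 of WT mouse 1 corresponds to 12 reads, all in retained-intron transcripts, while the 13 reads of day 1 in WT mouse 2 give 0.8121.

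Pla2g2a encodes the secreted phospholipase that breaks bacterial membranes in the small intestine, and C57BL/6 mice are known to carry a frameshift in it. It received 0 to 3 reads per library and 17 in all, of which 11.42 were credited to a retained-intron transcript. Its level ran from 0 to 3.328 in WT and from 0 to 4.112 in Tnfr2-/- libraries, with 4 and 5 libraries at 0, and the groups overlapped. Over all days the log2 difference was -0.20 (SE 0.351, limma adjusted p 0.783). The gene lies on chromosome 4, 6.378 Mb from Tnfrsf1b, and whether the Tnfr2-/- mice carry the C57BL/6 allele there was not analysed here.

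The lectins Reg3b and Reg3g, the latter a binder of Gram-positive peptidoglycan, had 0 reads in all 20 libraries. With 3 reads as the limit of a count of 0, this allows a level of up to between 0.7915 and 3.451 per library for Reg3b and up to between 0.8081 and 3.523 for Reg3g. Their transcripts are 99.34% and 99.33% made of words of their own, so they share few words with each other or with other genes. Retnlb, the goblet cell peptide RELM-beta, had 1 read on day 5 in WT mouse 1 (1.288) and 1 on day 2 in Tnfr2-/- mouse 2 (0.9585), and the limit of its zeros was between 0.93 and 4.055. Differences between genotypes were not detectable for these 3 genes at this depth. The receptors and transducers through which microbial products and cytokines act on such genes were measured with more reads. Of 22 listed, 21 were tested, and 2 of them rose and 1 fell with the loss of TNFR2 over all days (median log2 difference -0.07), where 7.6% of all genes were called. On the late days 3 rose and 2 fell (median 0.08), where 6.45% of all genes were called. Il1rl1, the receptor of IL-33, stood at 10.16, 11.81 and 44.32 in 3 late WT libraries and at 731.1 in the other, day 7 of mouse 1, against 1051 to 1353 in the 4 late Tnfr2-/- libraries (mean log2 difference 4.69, SE 0.590, limma adjusted p 6.13e-04). The groups did not overlap. Socs3, a feedback inhibitor of cytokine signalling through STAT3, was higher late by a log2 of 1.41 (SE 0.292, limma adjusted p 0.0140). Il17re, a subunit of the IL-17C receptor, was lower late (log2 difference -0.95, SE 0.199, adjusted p 0.0148). These fits count the days of a mouse as separate libraries. On means of 2 mice against 2, limma called none of 13539 genes late, with 1859 at an unadjusted p under 0.05 and 2219 called by voom on the single libraries, and the adjusted p was 0.196 for Il1rl1, 0.223 for Socs3 and 0.299 for Il17re.

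Read together over the late days, 6 of the 7 genes tested had a lower mean log2 level in Tnfr2-/- cultures. The median difference was -0.97, the value of Itln1, against -0.05 over all genes. Kit, Itln1 and Pla2g2a passed the filter through their WT means (2.46, 1.757 and 1.203), with Tnfr2-/- means of 0.416, 0.4934 and 0.9641. Their direction was thus partly set by the filter, and the counts of genes below 0, late and early, are no test. limma called 0 of the 7, where 6.45% of all genes were called, and 3 of the 7 had an unadjusted p under 0.05, as had 22.9% of all genes. The fit called voom, run on the recovered reads after the data had been seen, could test 3 of the 7 and called Reg4 (adjusted p 0.0397) and Lyz1 (0.0385), where it called 17.4% of all genes it tested. Early, all 7 were lower with a median of -0.63, which rested on WT mouse 1: without it 4 of the 7 turned to above 0 (median 0.20), with Reg4 at 0.82 (adjusted p 0.311), Lyz1 at 0.50, Pla2g2a at 0.47 and Lyz2 at 0.20. Without WT mouse 2 all 7 stayed below 0 (median -1.05). limma called 0 of 7, where 1.2% of all genes were called, 1 of the 7 had an unadjusted p under 0.05, as had 12.9% of all genes, and voom called 0 of 3. The late and early differences themselves were compared through the interaction, which was -1.94 for Reg4 (SE 1.53, limma adjusted p 0.649) and -1.48 for Lyz1 (SE 1.26, adjusted p 0.679). None of the 7 was called there, none had an unadjusted p under 0.05, voom called 0 of 3, and 0.148% of all genes were called. Without WT mouse 1 the interaction was called for Reg4 (-3.34, adjusted p 0.0419) and Lyz1 (-3.16, 0.0265), and without WT mouse 2 it was -0.53 for Reg4 (0.641) and turned to 0.19 for Lyz1 (0.850).

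With time after passage, Reg4, Lyz1, Ang4 and Itln1 rose in WT cultures. Late against early in WT, limma called 4 of the 7 higher and none lower, where 20.1% of all genes were called and 11.6% were called higher. Reg4 rose by a log2 of 3.87 (SE 1.08, adjusted p 0.0230), Lyz1 by 3.11 (SE 0.893, adjusted p 0.0262), Ang4 by 2.90 (SE 0.755, adjusted p 0.0165) and Itln1 by 1.31 (SE 0.386, adjusted p 0.0292). Late means were 6.34 times the early means for Reg4, 4.003 times for Lyz1 and 7.54 times for Ang4. These ratios rested on single early libraries of mouse 1: without day 3 that of Reg4 was 14.7, and without day 1 those of Lyz1 and Ang4 were 8.71 and 14.2. Leaving out single libraries ended the calls of Reg4 in 4 of 20 fits, Ang4 in 2, Lyz1 in 6 and Itln1 in 7. The libraries of day 5 and day 7 of WT mouse 1 were among them for all 4 genes, and over the 20 fits the adjusted p reached 0.108 for Reg4, 0.0875 for Ang4, 0.101 for Lyz1 and 0.0712 for Itln1. The others were WT mouse 2 on days 1 and 2 for Reg4 and Lyz1, on days 3 and 7 for Lyz1, on days 1, 3, 5 and 7 for Itln1, and WT mouse 1 on day 2 for Itln1. Without either Tnfr2-/- mouse none of the 4 was called (adjusted p 0.0884 to 0.130), where the spread comes mainly from the WT pairs, and Ang4 was also lost with a pseudocount of 0.1 (0.0556) and Lyz1 without a filter (0.0557). Itln1 was lost without WT mouse 2 as well (log2 difference 0.97, adjusted p 0.117). With the mouse as a fixed block Kit was called too (adjusted p 0.0238). Lyz2, at 1.925 ± 1.939 early (n = 6) and 0.8701 ± 0.6014 late (SD, n = 4), had a log2 difference of -0.46 that was not called (adjusted p 0.474).

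In Tnfr2-/- cultures limma called 1 of the 7 late against early, where 20.3% of all genes were called and 10.4% were called higher. This was Ang4, with 0.6907 ± 1.27 early (n = 6) and 15.43 ± 13.29 late (SD, n = 4) and a log2 rise of 3.03 (SE 0.755, adjusted p 0.0126), ended without the day 5 library of Tnfr2-/- mouse 1 (adjusted p 0.0512), without all of Tnfr2-/- mouse 1 (0.257) and without Tnfr2-/- mouse 2 (0.320). Reg4 went from 1.257 ± 1.861 to 6.122 ± 2.528 (log2 difference 1.94, SE 1.08, adjusted p 0.236) and Lyz1 from 1.415 ± 1.678 to 6.002 ± 4.437 (1.63, SE 0.893, adjusted p 0.229). The 5 days of a mouse are paired by animal. With the mouse as a fixed block, Reg4 (limma adjusted p 0.0236) and Lyz1 (0.0473) were called as well. The block also takes the difference between the WT mice, 3.40 for Reg4 and 2.62 for Lyz1, out of the spread that both genotypes share. Between the Tnfr2-/- mice the difference was 0.33 and -0.38. Over the alternatives that kept every library, the adjusted p ranged from 0.0236 to 0.367 for Reg4 and from 0.0473 to 0.421 for Lyz1. Both were called as well without WT mouse 1 (adjusted p 0.00302 and 0.00268) and without WT mouse 2 (0.00238 and 0.00198). Neither was called without Tnfr2-/- mouse 1 (0.652 and 0.612) or Tnfr2-/- mouse 2 (0.686 and 0.720). Without either WT mouse the log2 differences stayed at 1.94 for Reg4 and 1.63 for Lyz1, so there only the shared spread changed. Late means of Reg4, Lyz1 and Ang4 were thus above early means in both genotypes. The change with time was not shown to differ between genotypes for any of them, as the interaction above gives.

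**Figure D4:**
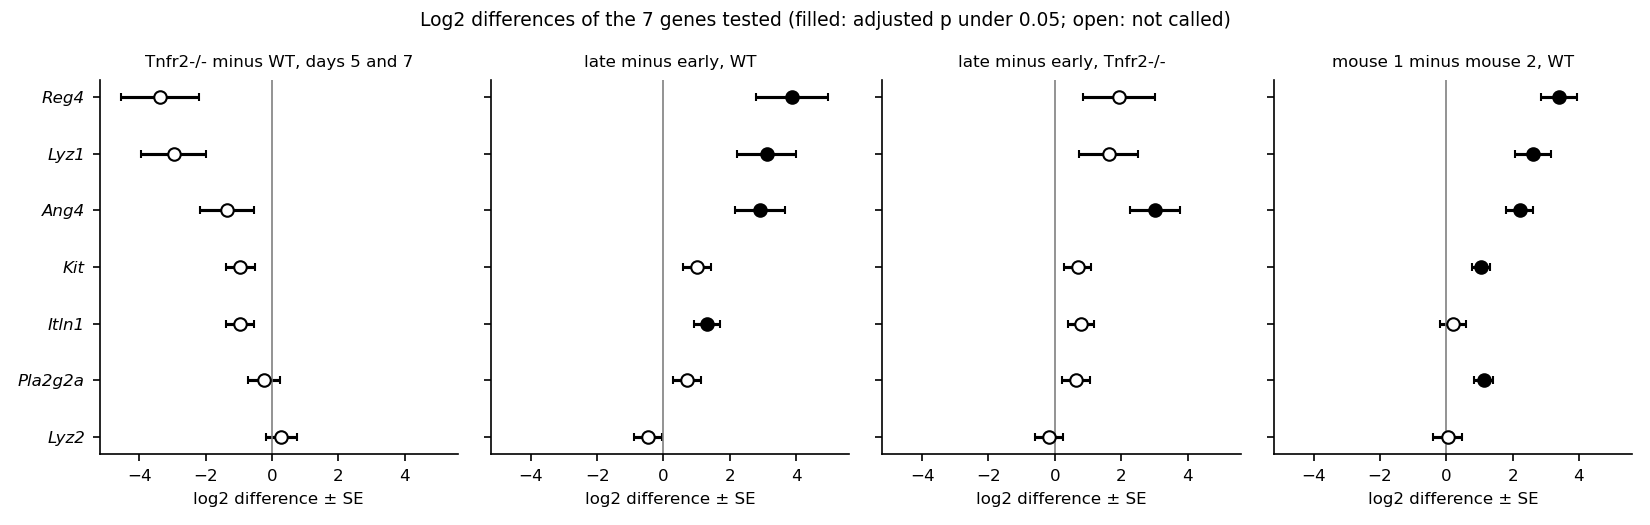
Log2 differences with their SE for the 7 genes tested, from limma on log2(normalised expression + 1), in 4 comparisons. Filled points have an adjusted p under 0.05 over all genes and open points do not. All 7 points lie above 0 between the WT mice, where 5 are filled, and no point is filled between genotypes late. The points of Pla2g2a and Kit rest on 0 to 3 and 0 to 13 reads per library.

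The mice of 1 genotype differed as well. Over the 5 days, WT mouse 1 was above WT mouse 2 by a log2 of 3.40 for Reg4 (SE 0.540, limma adjusted p 0.00354), 2.62 for Lyz1 (SE 0.533, adjusted p 0.0123), 2.21 for Ang4 (SE 0.409, adjusted p 0.00792), 1.13 for Pla2g2a (SE 0.283, adjusted p 0.0318) and 1.05 for Kit (SE 0.280, adjusted p 0.0403). These 5 of the 7 genes were called, where 8.09% of all genes were called and 3.77% were called higher. For Pla2g2a this set 1, 1, 1, 1 and 3 reads in WT mouse 1 against 0, 0, 0, 0 and 2 in WT mouse 2. The highest Kit level in WT mouse 1 came from 12 reads, all in retained-intron transcripts. The library with the most Kit reads, 13, was of WT mouse 2. Reg4 and Ang4 were called in all 20 fits without 1 library, Lyz1 in 18, Pla2g2a in 12 and Kit in 2. The test compares 5 libraries of 1 animal with 5 of another and says nothing of WT mice in general. With voom on recovered reads 1 of the 3 genes it could test was called (Reg4, adjusted p 0.00933), where 17.5% of all genes were called. Between the Tnfr2-/- mice limma called 0 of the 7, where 0.096% of all genes were called, none of the 7 had an unadjusted p under 0.05, and voom called 0 of 3. The largest difference there was 0.72 for Ang4 (SE 0.409, adjusted p 0.886). On day 7 the WT mice stood at 73.34 and 75.79 for Lyz1 and at 91.11 and 68.38 for Ang4, and on day 1 at 49.31 and 1.738 for Lyz1 and at 20.75 and 0.6042 for Ang4.

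Markers of other cells moved with the difference between the WT mice, for which 8.09% of all genes were called and 3.77% were called higher. Of 7 goblet cell markers tested 6 were called higher in WT mouse 1 than in WT mouse 2 (median log2 difference 3.41), among them Tff3, the trefoil peptide of mucus (4.07, SE 0.672, limma adjusted p 0.00452), and Muc2, the gel-forming mucin (3.41, SE 0.439, adjusted p 0.00106). All 3 enteroendocrine markers tested were called higher (median 2.50). Absorptive cell markers went the same way, with 4 of 7 called higher and none lower (median 1.54), among them Car1, a carbonic anhydrase of colonocytes (3.497, SE 0.508, adjusted p 0.00210). Of 27 listed genes of deep secretory cells 23 were tested, with 8 called higher and 2 lower (median 0.76), and Spink4, a protease inhibitor of goblet and deep secretory cells, was higher by 3.60 (SE 0.668, adjusted p 0.00793). Of 10 fibroblast markers 6 were called lower in WT mouse 1 and none higher (median -0.74). The median over all genes tested was within 0.1 of 0 in each comparison. The part of these cell types in the levels of the 10 genes was not tested.

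The same lists were read between genotypes late, where 6.45% of all genes were called. Of the 7 goblet cell markers tested none was called and all 7 were below 0 (median -1.87), and of the 3 enteroendocrine markers none was called (median -1.61). Of the 7 absorptive cell markers 2 were called lower and none higher (median -1.003), Car1 (-4.74, SE 1.19, limma adjusted p 0.0315) and Cyp2c55 (-4.39, SE 1.12, adjusted p 0.0337). Of the 23 deep secretory genes tested 1 was called higher and 1 lower (median -0.69). The higher one was Mmp7, a protease that activates defensins in Paneth cells, at 47.95 in WT and 138.6 in Tnfr2-/- cultures (log2 difference 1.64, SE 0.297, limma adjusted p 0.00669). The lower one was Slc12a8, a membrane transporter (log2 difference -1.64, SE 0.399, adjusted p 0.0280). All 10 fibroblast markers were above 0 and 2 were called, Dcn (2.74, SE 0.222, adjusted p 2.16e-05) and Vim (1.69, SE 0.341, adjusted p 0.0122). On means per mouse these late calls were lost, with adjusted p-values from 0.127 for Dcn to 0.262 for Vim and with Mmp7, Slc12a8, Car1 and Cyp2c55 in between. The summed fibroblast level ran from 1366 to 4631 in late WT and from 3977 to 9677 in late Tnfr2-/- libraries, and the part of any of these cell types in the lower levels of Reg4, Lyz1 and Itln1 was not tested. Paneth cell genes of the small intestine were mostly absent: of 17 measured 11 were at 0 in every library, among them 9 Defa genes of defensins. Of all 35240 genes, 22550 had a value above 0 in some library. The 2 Paneth cell genes with a mean of at least 1, Mmp7 and Nupr1, are also made outside Paneth cells. The others, Defa genes among them, had a value above 0 in at least 1 library and a mean below 1.

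**Figure D5:**
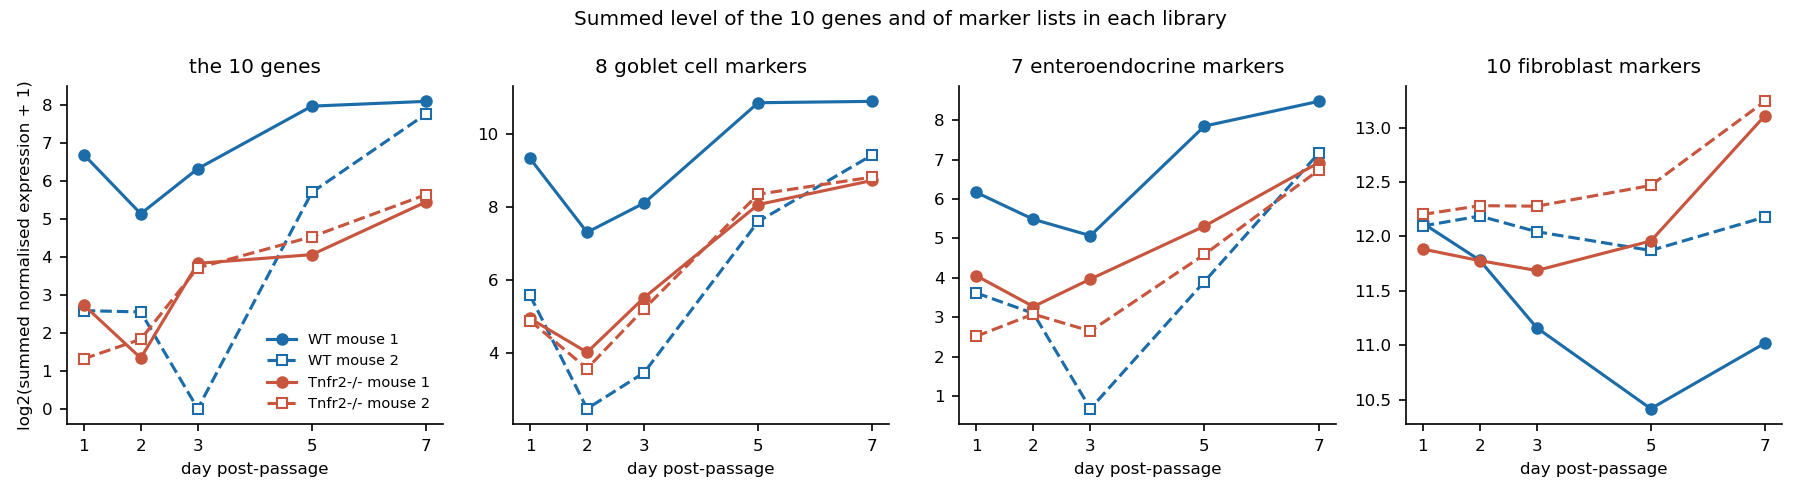
Summed normalised expression of the 10 genes and of the goblet cell, enteroendocrine and fibroblast marker lists in each library, as log2(sum + 1) against the day post-passage, 1 line per mouse (blue for WT, red for Tnfr2-/-; filled circles for mouse 1, open squares for mouse 2). WT mouse 1 is highest in the first 3 panels on every day and lowest in fibroblast markers from day 3 on. The vertical axes differ between panels.

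Related genes were also read late against early in WT, where 11.6% of all genes were called higher. Of 15 tested genes listed as other lectin and antimicrobial genes, 8 were called higher and none lower (median log2 difference 1.21). The largest rise was that of Lypd8, which keeps flagellated bacteria from the colonic epithelium. It went from a mean of 168.4 to 2818 (4.50, SE 0.699, limma adjusted p 9.55e-04). Of the 23 deep secretory genes 12 were called higher and 1 lower (median 1.53), and of 12 secretory lineage transcription factors 8 were called higher and none lower (median 0.76), among them Spdef, which drives goblet cell maturation (2.06, SE 0.491, adjusted p 0.0109). In Tnfr2-/- cultures, where 10.4% of all genes were called higher, the counts were 7 higher and 1 lower of 15, 6 higher and 1 lower of 23, and 4 higher and none lower of 12. Whether these counts differ between genotypes was not tested.

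By likeness over the 20 libraries (Pearson r of log2 values, with libraries that share mice and days), Reg4 was followed most closely by Myo1a, a myosin of the brush border (r = 0.971), Muc3, a membrane mucin (0.954), and Cyp2c55, a cytochrome of colonic enterocytes (0.952). For Lyz1 the 3 genes were Reg4 (0.928), Tff3 (0.923) and Chgb, a granin of enteroendocrine cells (0.913), and for Ang4 they were Pyy (0.922), a hormone of enteroendocrine cells, Chgb (0.920) and Fcgbp (0.913), a mucus protein. Reg4 and Ang4 had an r of 0.793 and Lyz1 and Ang4 of 0.86. For the genes at a few reads the closest were Clca4a for Itln1 (0.836), Cyp4f14 for Kit (0.848), Aqp4 for Pla2g2a (0.853) and Dynlrb1 for Lyz2 (0.821).

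Reg4, Lyz1 and Ang4 all rose late in WT cultures, and the 250 bases before their starts are shown (RefSeq, GRCm38.p6, 5′ to 3′ on the strand of the gene). The windows are chr3:98221906-98222155 on the plus strand for Reg4, chr14:51773591-51773840 on the minus strand for Ang4 and chr10:117292869-117293118 on the minus strand for Lyz1. Capitals mark matches, on either strand, to the E-box CANNTG, the letters that basic helix-loop-helix factors of the secretory lineage such as ATOH1 read in part:
Reg4: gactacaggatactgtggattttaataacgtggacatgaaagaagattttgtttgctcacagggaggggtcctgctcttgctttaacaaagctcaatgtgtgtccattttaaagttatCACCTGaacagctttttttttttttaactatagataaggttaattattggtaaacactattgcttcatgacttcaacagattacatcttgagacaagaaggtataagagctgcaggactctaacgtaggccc
Ang4: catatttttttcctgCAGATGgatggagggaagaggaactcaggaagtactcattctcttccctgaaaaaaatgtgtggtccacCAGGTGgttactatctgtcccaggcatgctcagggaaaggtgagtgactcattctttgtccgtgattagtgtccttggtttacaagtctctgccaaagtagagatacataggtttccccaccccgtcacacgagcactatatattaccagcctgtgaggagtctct
Lyz1: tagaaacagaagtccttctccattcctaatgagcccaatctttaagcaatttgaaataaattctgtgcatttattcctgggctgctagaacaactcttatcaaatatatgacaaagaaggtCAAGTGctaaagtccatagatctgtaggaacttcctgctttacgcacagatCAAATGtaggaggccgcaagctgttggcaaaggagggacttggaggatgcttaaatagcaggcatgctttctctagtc

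Reg4 held 1 match, 132 bases before the start, Ang4 held 2, at 235 and 166 bases, and Lyz1 held 2, at 129 and 78 bases. Windows of the same length hold at least 1 match in 66.2% of 32851 promoters, so a match is common. The E-box forms CAGCTG (13.0% of promoters) and CAGATG (14.4%), which both overlap CANNTG, the letters TTTATG read by CDX factors (10.8%) and the TATA-type letters TATAAA (12.4%) were searched as well. Ang4 held CAGATG, at the place of its first E-box, and no other of these matches was found in the 3 windows. These letters are a description of the sequence and were not set against any binding data.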

How the data were processed

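Stranded mRNA libraries of 20 colonoid cultures were sequenced as single-end reads. According to the submitters' processing notes, CASAVA, kallisto, sleuth and mm10 were used. The deposited values are a signal per transcript that the authors obtained by scaling TPM with library size factors, and sum to between 900655 and 1111080 per library. kallisto divides reads that match several transcripts by a model. The same table holds p-values, q-values and model terms of the authors' own comparison, which were not used.

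Of 113974 lines, 781 repeats were dropped, and values were summed by gene name (35240 genes). Library depth was estimated from low values of 10295 genes with 1 transcript, as the step that a single read makes in value times effective length, with GENCODE M21 lengths and a fragment length of 200 bases that fitted best. Between 62.7% and 68.7% of values under 5.5 reads lay within 0.05 of a whole read. Where the text gives reads, these are recovered in this way.

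The plan allowed for counts or normalised values, and the rule for normalised values was used. Genes with a mean of at least 1 (13539) were analysed as log2(value + 1) by limma (version 3.58.1, R 4.3.3) with a mean-variance trend, 2-sided p-values and Benjamini-Hochberg adjustment over all of them, and called at an adjusted p under 0.05. The genotype effect over all days had day as a factor, and the other comparisons were contrasts in a fit of 10 group means (with a term for the mouse in each genotype where mice were compared). Scripts were tested on simulated data. Alternatives were another pseudocount, no filter, no trend, rescaling, 1 transcript per gene, paired genes summed, mouse blocks, mouse means, day as a linear term and leaving out libraries or mice. voom on recovered reads (mean of at least 5) was added after seeing the data.

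Mouse numbers name the same animal across days within a genotype, so they pair days. Deviations from the group means correlated at an r of 0.0997 to 0.307 between days of a WT mouse and -0.0511 to 0.08 in Tnfr2-/- mice. They do not pair WT with Tnfr2-/- mice. The 10 genes and the marker and pathway lists were chosen with earlier results of these data known. Named were the 10 genes, Tnfrsf1b, the 3 genes closest to each tested member by Pearson r, and from each list the called genes with the largest change or, where none was called, those of highest mean. Of these, the text gives the ones its results turn on.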

Additional observations from a re-analysis of the deposited data

Results flagged for a closer look

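Single libraries stood apart from the others of their genotype and stage in 6 of 30 sets of 4 or 6 libraries, by the gap to the next value as a share of the range. The usual rate of about 1 in 20 sets by chance holds for continuous values and cannot be set against this count: in 3 of the 6 sets only 1 library was above 0, which is always marked, and sets wholly at 0 were not looked at. The sets also mix days and repeat the same mice. Among early WT libraries, Reg4 was highest at 52.4 on day 3 in mouse 1, with 18.97 next. Itln1 was highest among early WT libraries at 4.994 on day 1 in mouse 1, from 2 reads, and among early Tnfr2-/- libraries at 1.031 on day 3 in mouse 2, also from 2 reads. Ang4 was highest among early Tnfr2-/- libraries at 3.152 on day 3 in mouse 1, from 3 reads, with 0.9917 next. Retnlb had its 2 reads in 2 libraries, at 1.288 among late WT and 0.9585 among early Tnfr2-/- libraries, with every other library of these sets at 0.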

How the results depend on the processing

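Of 415 values for single genes under alternatives that left out no library, 380 kept their direction and their side of the threshold, 13 lost a call, 12 gained one and 10 turned. None of the 10 was called as reported. Summed with Lyz1, which has most of the reads, Lyz2 turned in 6 comparisons, to a log2 of 2.66 late against early in WT (called, limma adjusted p 0.0316), 1.01 in Tnfr2-/- cultures, -1.77 for genotype over all days, -2.75 late, -1.65 for the interaction and -0.16 between the Tnfr2-/- mice. With a pseudocount of 0.1, Lyz2 turned early (0.26) and between the WT mice (-0.0272), and the interaction turned for Kit (0.55) and Pla2g2a (0.18). Tnfrsf1b, beside these genes, turned between the Tnfr2-/- mice with that pseudocount (0.0137), rescaling (0.0151) and the most abundant transcript (0.0683). The count of the 10 genes called for genotype over all days, 1 as reported, was 0 with a pseudocount of 0.1, no filter, no trend, the most abundant transcript only, the mouse as a correlated replicate block, means per mouse and day as a linear term, and 3 with the replicate number as a block and with voom. Over all genes, 1029 of 13539 were called there as reported, 7 on means per mouse and 545 to 986 in the other settings that gave 0. With the replicate number as a block 1222 were called, and with voom 2159 of 12735. For genotype late the count moved from 0 to 1 with the replicate number as a block (Reg4) and to 2 with voom. Over all genes 873 were called late as reported, 1242 with that block and 2219 with voom. Replicate numbers are not shared animals between genotypes, and samples with the same number correlated at -0.0536 to 0.0761, so that block is given as a value only. Late against early in Tnfr2-/- cultures moved from 1 to 2 with a pseudocount of 0.1 (Ang4 and Itln1) and to 3 with the mouse as a fixed replicate block. Over all genes these settings called 2755, 2704 and 3343. Between the WT mice the count moved from 5 to 3 with the most abundant transcript, under which Kit and Pla2g2a fell below the mean level needed and were not tested. It moved to 1 with voom, which tested 3 genes. Over all genes 1095 were called there as reported, 727 with the most abundant transcript and 2224 with voom. The block changed no other count by over 1.5 times. The cause of the other moves was not tested.

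Leaving out each library, or each mouse where both genotypes or stages kept a sample, gave 0 to 4 genes called for genotype over all days, 0 to 4 late, 0 to 3 early, 0 to 2 for the interaction, 0 to 4 late against early in WT, 0 to 3 in Tnfr2-/- cultures, 2 to 5 between the WT mice and 0 to 0 between the Tnfr2-/- mice. Without WT mouse 2, Ang4, Kit, Lyz1 and Reg4 were called over all days and late, and 3 of them, without Kit, early. A mouse left out leaves 1 library per day, which is assumed to vary like the pairs of the other genotype. The calls over all genes in these fits are not given. The counts therefore have no background and show only how far calls depend on single libraries and mice. Ang4 over all days was called without WT mouse 2 on day 1 or 3 or Tnfr2-/- mouse 1 on day 3, Reg4 without WT mouse 2 on day 1, 2 or 3, and Kit late, as well as late against early in WT, without WT mouse 2 on day 5. Either WT library of day 3, left out, gave calls of Reg4 and Lyz1 late (lowest adjusted p 0.0479 and 0.0461), through the spread alone. The sum of Reg3b and Reg3g stayed at 0 and gave no value. Depth limits Kit, Itln1, Pla2g2a, Lyz2, Retnlb, Reg3b and Reg3g most, at 13 reads or fewer per library, and 2 mice per genotype limit every comparison.

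Log2 differences that were not called as reported also changed sign when libraries were left out. Without WT mouse 1 these were the genotype effects of Pla2g2a (0.36 over all days, 0.20 late, 0.47 early) and, early, of Reg4 (0.82), Lyz1 (0.50) and Lyz2 (0.20), the interactions of Ang4 (-0.58) and Lyz2 (-0.18), and late against early in WT for Lyz2 (0.0138) and Tnfrsf1b (-0.13). Without WT mouse 2 they were the interactions of Pla2g2a (0.13) and Lyz1 (0.19). Without Tnfr2-/- mouse 1 they were those of Pla2g2a over all days (0.00514), late (0.23) and in the interaction (0.37), and without Tnfr2-/- mouse 2 Lyz2 early (0.0274) and the interaction of Ang4 (-0.24). Without single libraries, the genotype effect of Lyz2 ranged from -0.0577 to 0.28 over all days, from -0.0253 to 0.59 late and from -0.32 to 0.29 early, and that of Pla2g2a from -0.61 to 0.12 late and from -0.40 to 0.052 early. The interaction ranged from -0.83 to 0.20 for Kit, -0.50 to 0.76 for Ang4, -0.44 to 0.30 for Pla2g2a and -0.00842 to 0.60 for Lyz2. Late against early ranged from -0.0689 to 0.23 for Tnfrsf1b in WT and from -0.47 to 0.14 for Lyz2 in Tnfr2-/- cultures. Between the WT mice the range was -0.28 to 0.36 for Lyz2, -0.28 to 0.44 for Itln1 and -0.0699 to 0.17 for Tnfrsf1b, and between the Tnfr2-/- mice -0.34 to 0.44 for Lyz2 and -0.13 to 0.12 for Tnfrsf1b. None of these single-library values was called.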
